A study of Saccharomyces cerevisiae with 27 samples.

Results

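Budding yeast cells that carried REC8 under the MCD1 promoter, in a strain labelled as a double mutant of mcd1 and fob1, were compared with cells that lacked FOB1 alone. The comparison used 6 of the 27 Affymetrix arrays of the series, 3 cultures of each strain, chosen by their titles. Both strains were of the earlier of the pair of experiment dates and both carried the fob1 deletion, so they differ by the mcd1 mutation and the REC8 construct. They are called the mcd1 REC8 fob1 strain (JG1856) and the fob1 strain (JG1830). The cultures grew in YPD with added CSM at 30 °C and were collected in exponential phase. Each strain is 1 isolate, and the optical density of each culture at collection was not given in the sources used here. Other arrays of the same date served beside them, namely the mcd1 REC8 strain (JG1857), which kept FOB1, and the eco1 fob1 strain (BH664). The rad61 and rad61 eco1 strains of that date entered the shared model and the counts over other arrays. Wild type (w303a), a further set of fob1 cultures and eco1 cultures were of the later date.

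Cohesin is a ring of SMC proteins, closed by a kleisin subunit, that holds sister chromatids together and shapes chromosomes. Mcd1 (also called Scc1) is the kleisin of the mitotic ring, and Rec8 takes its place in meiosis, where its cleavage, first along the arms and later at centromeres, lets chromosomes part. Fob1 binds the replication fork barrier of the ribosomal DNA repeats, stops forks there and is known for promoting recombination between the repeats.

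The engineered genes were examined first, since they check the labels. FOB1 had a log2 intensity of 4.10, 4.30 and 4.17 in fob1 replicates 1 to 3 and of 4.29, 4.11 and 4.24 in mcd1 REC8 fob1 replicates 1 to 3. The mcd1 REC8 strain, which kept FOB1, stood at 9.34, 9.68 and 9.86. FOB1 signal was thus low in all 6 arrays compared and high where the label leaves the gene in place. FOB1 was also the only probe set called between the mcd1 REC8 fob1 and mcd1 REC8 strains, which is 0.0175% of those tested, with a log2 difference of -5.41 (limma, adjusted p = 6.45e-19). In that comparison 173 of the 5716 probe sets had an unadjusted p under 0.05, beside 458 between the mcd1 REC8 fob1 and fob1 strains.

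REC8 was higher in the strain that carries the construct. Its log2 intensity was 5.25, 5.28 and 5.44 in the fob1 cultures and 5.93, 5.95 and 5.79 in the mcd1 REC8 fob1 cultures. The groups did not overlap, and all 6 values were dim, under a log2 intensity of 7. The difference was 0.57 ± 0.12 (log2, limma SE, n = 3 against 3), a fold of 1.48 with a 95% interval of 0.33 to 0.81 on the log2 scale (limma, adjusted p = 0.0303). This call was lost when any of the 6 arrays was left out, with adjusted p up to 0.224. With a pseudocount of 32 the difference was 0.34. The mcd1 REC8 strain stood at 5.61, 5.801 and 5.69, and its difference from the mcd1 REC8 fob1 strain was not called. Later-date eco1 cultures, whose titles name eco1 alone, were at 5.70, 5.57 and 5.72, near the mcd1 REC8 strain. REC8 signal therefore does not by itself check the label. RNA was taken from whole cultures, so fewer cells with a transcript and less of it per cell cannot be told apart here or below.

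MCD1, the gene named as mutant in the label, did not have a lower signal. The fob1 cultures were at a log2 intensity of 10.97, 11.04 and 11.15, and the mcd1 REC8 fob1 cultures at 10.95, 11.09 and 11.01. The ranges overlapped, and the difference was -0.04 ± 0.07 with a 95% interval of -0.18 to 0.10 (limma, adjusted p = 0.945). In the mcd1 REC8 strain the values were 11.03, 10.97 and 11.001. Which bases of MCD1 the probes cover, and whether they lie inside the mutated stretch, was not given in the sources used here, so these values do not check the mcd1 label.

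URA3, which encodes the decarboxylase of the last step of uridine monophosphate synthesis and is a common selection marker, had the largest called difference. Its log2 intensity was 11.45, 11.36 and 11.22 in the fob1 cultures and 13.46, 13.36 and 13.38 in the mcd1 REC8 fob1 cultures. It rose by 2.06 ± 0.08, a fold of 4.16 (limma, adjusted p = 1.34e-13), and was called under all 17 alternatives. The mcd1 REC8 strain was as bright, at 13.33, 13.22 and 13.42, while the eco1 fob1 cultures were at 11.22, 11.15 and 11.17. The array's control probe sets for URA3, which were not in the fit, differed by 2.17 (3′), 2.10 (5′) and 2.10 (middle). URA3 therefore was high in both strains that carry REC8 and in neither of the other strains named here.

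**Figure D1:**
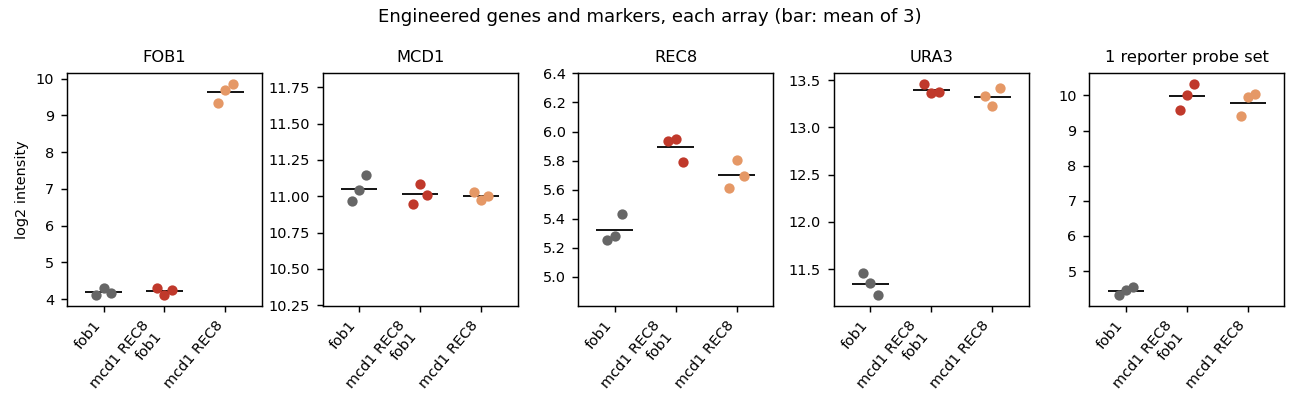
Log2 intensity of FOB1, MCD1, REC8, URA3 and 1 reporter probe set in each array of the fob1, mcd1 REC8 fob1 and mcd1 REC8 strains (points are cultures, bars are means of 3, and each panel has its own axis). URA3 and the reporter probe set are high in both REC8 strains, FOB1 is high only in the strain that kept it, and MCD1 sits near 11 in all 9 arrays.

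Across the genome the 2 strains differed in few genes. Of 5716 probe sets tested, 17 were called at an adjusted p under 0.05, which is 0.297%, with 5 higher (0.0875%) and 12 lower (0.21%) in the mcd1 REC8 fob1 strain. The unadjusted p was under 0.05 for 458 probe sets (8.01%), and 35 had an adjusted p under 0.1. With quantile normalization repeated the count was 28, of which 5 were higher and 23 lower. Without fob1 replicate 2 it was 4, without fob1 replicate 3 it was 6, and without mcd1 REC8 fob1 replicates 1, 2 and 3 it was 9, 6 and 6. Fitted on the 6 arrays alone, the comparison called 8. Without rad61 replicate 2 and the second later-date fob1 culture, which enter only the shared estimate of the spread, it was 75. Of the 17 genes, 4 (URA3, YGP1, DDR48 and YDL124W) kept their calls under every removal of 1 of the 6 arrays.

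The median difference over all probe sets was 0.02, with quartiles of -0.04 and 0.10, and the median SE was 0.096. A fold of at least 2 was reached by 2 probe sets upward and 2 downward, and a fold of at least 1.5 by 10 upward and 22 downward, called or not. All 3 mcd1 REC8 fob1 arrays lay above all 3 fob1 arrays in 644 probe sets (11.3%) and below them in 364 (6.37%). The arrays of the 2 strains correlated at 0.9944 to 0.9972, against 0.9960 to 0.9975 within the mcd1 REC8 fob1 strain and 0.9971 to 0.9975 within the fob1 strain. Median intensity per array ran from 1225.3 to 1257.85.

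**Figure D2:**
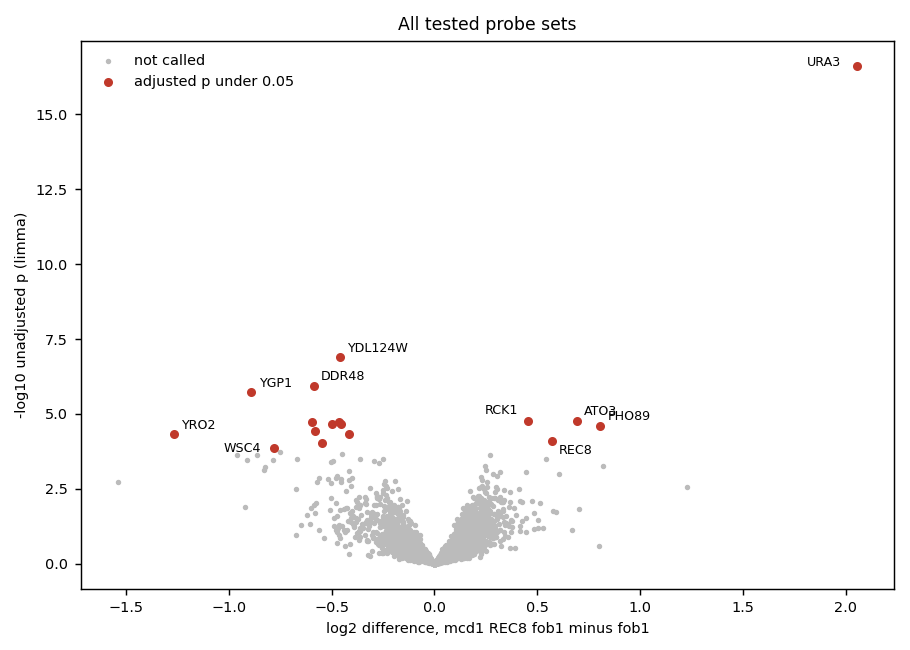
Log2 difference of the mcd1 REC8 fob1 strain from the fob1 strain (horizontal) against -log10 of the unadjusted limma p (vertical) for the 5716 probe sets tested, with the 17 called ones in red and 10 of them named. URA3 lies far from all other probe sets, and most called genes are on the lower side.

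Of the called genes, YRO2 and YGP1 had the largest falls. YRO2, which encodes a plasma membrane protein related to Mrh1, was at 11.21, 11.23 and 11.60 in the fob1 cultures and at 10.54, 9.67 and 10.03 in the mcd1 REC8 fob1 cultures. It fell by 1.27 ± 0.25 (limma, adjusted p = 0.0196), a fold of 2.41. YGP1, a secreted glycoprotein of the cell wall, was at 12.95, 13.12 and 13.06 against 12.32, 12.06 and 12.08. It fell by 0.89 ± 0.14 (limma, adjusted p = 0.00265). For both genes the mcd1 REC8 fob1 arrays lay below all 24 other arrays of the series, the lowest of which was at 10.65 for YRO2 and 12.58 for YGP1. The same held for YDL124W and for no other called gene, beside 0.192% of all probe sets. The called genes were chosen as apart in the same mcd1 REC8 fob1 arrays, so nothing is read from that share.

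DDR48, a protein named for its response to DNA damage and heat, was at 12.15, 12.28 and 12.17 in the fob1 cultures and at 11.74, 11.44 and 11.65 in the mcd1 REC8 fob1 cultures. The groups did not overlap, and it fell by 0.59 ± 0.09 (limma, adjusted p = 0.00221). APE1, the vacuolar aminopeptidase I, was at 11.63, 11.93 and 11.79 against 11.21, 11.26 and 11.10. Its groups did not overlap either, and it fell by 0.60 ± 0.11 (limma, adjusted p = 0.0123).

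Another 4 of the genes that fell encode enzymes. PRX1, the mitochondrial peroxiredoxin, was at 10.78, 10.89 and 10.72 in the fob1 cultures and at 10.40, 10.21 and 10.28 in the mcd1 REC8 fob1 cultures, and it fell by 0.50 ± 0.09 (limma, adjusted p = 0.0123). YDL124W, an aldo-keto reductase that uses NADPH, was at 12.52, 12.66 and 12.52 against 12.20, 12.07 and 12.06. It fell by 0.46 ± 0.06, which gave the lowest adjusted p after URA3 (limma, 0.000371). In both genes every mcd1 REC8 fob1 culture was lower than every fob1 culture, and the gap was larger than the spread within either strain. GOR1, a glyoxylate reductase, was at 10.77, 10.99 and 10.83 against 10.47, 10.38 and 10.38, and it fell by 0.45 ± 0.08 (limma, adjusted p = 0.0123). PNC1, the nicotinamidase that clears an inhibitor of the silencing deacetylase Sir2, was at 11.93, 12.11 and 11.92 against 11.59, 11.51 and 11.62. It fell by 0.42 ± 0.08 (limma, adjusted p = 0.0196).

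The other 4 genes that fell have varied roles. OPT2, an oligopeptide transporter, was at 9.32, 9.53 and 9.44 in the fob1 cultures and 8.95, 8.90 and 8.70 in the mcd1 REC8 fob1 cultures, and fell by 0.58 ± 0.11 (limma, adjusted p = 0.0179). SER3, the phosphoglycerate dehydrogenase that opens serine synthesis, was at 10.66, 10.99 and 11.01 against 10.32, 10.39 and 10.32, and fell by 0.54 ± 0.11 (limma, adjusted p = 0.0343). The spread of SER3 was wider in the fob1 strain (SD 0.20) than in the mcd1 REC8 fob1 strain (SD 0.04). YHI9, a protein of unknown function, was at 11.38, 11.58 and 11.61 against 11.05, 11.07 and 11.06, and fell by 0.46 ± 0.09 (limma, adjusted p = 0.0123). WSC4, a membrane protein of the family of cell wall sensors, fell by 0.78 ± 0.17 (limma, adjusted p = 0.0465), from 9.74 ± 0.24 to 8.96 ± 0.19 (SD, n = 3). Its call was the least stable of those that fell, with an adjusted p of up to 0.352 when 1 array was left out.

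Besides URA3 and REC8, 3 genes rose. PHO89, the sodium-coupled phosphate transporter, was at 10.05, 10.01 and 9.99 in the fob1 cultures and at 10.83, 10.98 and 10.64 in the mcd1 REC8 fob1 cultures, and it rose by 0.80 ± 0.15 (limma, adjusted p = 0.0128). ATO3, a putative ammonium exporter, was at 11.23, 10.85 and 10.84 against 11.72, 11.73 and 11.55, and it rose by 0.69 ± 0.13 (limma, adjusted p = 0.0123). RCK1, a protein kinase known from the oxidative stress response, was dim, at 5.25, 5.12 and 5.22 against 5.58, 5.58 and 5.796. It rose by 0.45 ± 0.08 (limma, adjusted p = 0.0123), with quantile normalization repeated it was no longer called, and with a pseudocount of 32 the difference was 0.26. In these 3 genes, as in the other 14, the 2 strains did not overlap. All of these genes were called on the difference between the same arrays, so nothing is read from that separation, here or above.

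**Figure D3:**
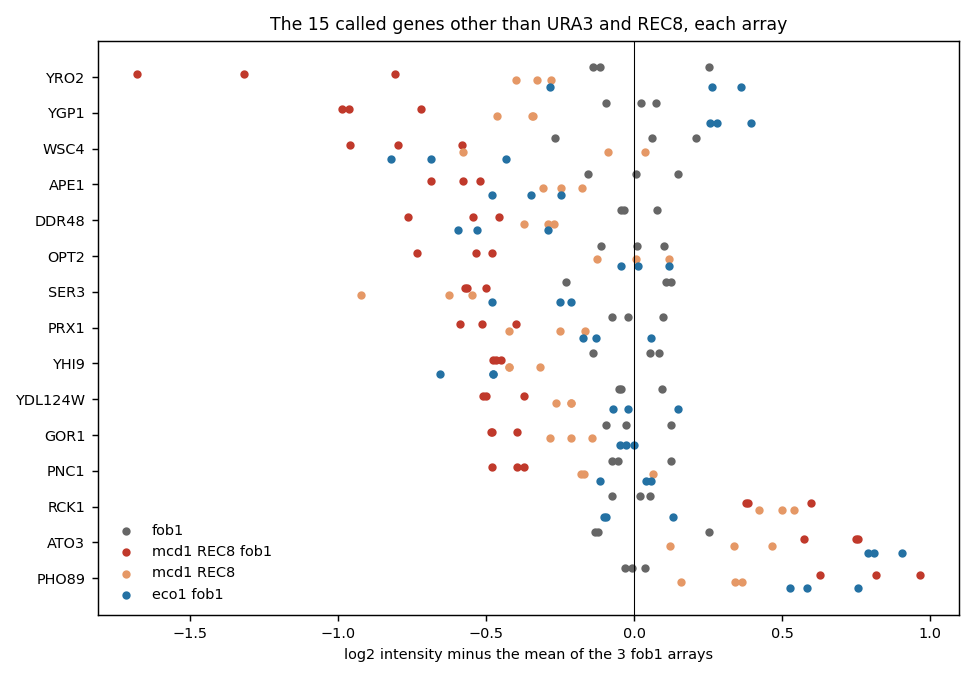
Log2 intensity of each array minus the mean of the 3 fob1 arrays, for the 15 called genes other than URA3 and REC8, in the fob1 (grey), mcd1 REC8 fob1 (red), mcd1 REC8 (orange) and eco1 fob1 (blue) strains, 3 cultures each. Red and grey points are apart for every gene, and the genes were called on the difference between these same arrays. The orange points often lie between the red and grey ones. The blue points lie nearer the red ones for ATO3, YHI9, WSC4, DDR48 and PHO89. They lie nearer the grey ones for YRO2, YGP1, OPT2, PRX1, YDL124W, GOR1, PNC1 and RCK1. For APE1 and SER3 their mean lies between.

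The 17 genes were also read in the other strains of the same date. In 7 of the 17, namely YRO2, YGP1, APE1, PNC1, GOR1, OPT2 and YDL124W, the mcd1 REC8 fob1 arrays lay below all 15 other arrays of the earlier date, beside 0.7% of all probe sets. The 17 had been chosen as apart in the same mcd1 REC8 fob1 arrays, so nothing is read from that count. Against the eco1 fob1 strain, which also lacks FOB1, 51 probe sets were called (0.892%), of which 9 were higher and 42 lower in the mcd1 REC8 fob1 strain. Without mcd1 REC8 fob1 replicates 2 and 3 in turn that count was 30 and 23, and it was 127 without the pair of arrays named above that only inform the spread. The eco1 fob1 and fob1 comparisons share the mcd1 REC8 fob1 arrays, so their values are given side by side. YRO2 differed by -1.38 from eco1 fob1 (limma, adjusted p = 0.00523), YGP1 by -1.20 (2.29e-05) and OPT2 by -0.61 (0.00562). YDL124W, GOR1, PRX1, PNC1, RCK1 and URA3 were called as well, with differences of -0.48, -0.43, -0.42, -0.41, 0.48 and 2.22. The remaining 8 genes were not called there, and their differences were 0.18 for PHO89, -0.14 for ATO3, -0.13 for WSC4, -0.24 for APE1, 0.07 for YHI9, -0.12 for DDR48, -0.23 for SER3 and 0.41 for REC8. For ATO3 the eco1 fob1 cultures were at 11.76, 11.88 and 11.78, all above the 3 mcd1 REC8 fob1 cultures. ECO1 itself was higher by 3.18 than in eco1 fob1, whose label names it as mutant, and differed by 0.11 from the fob1 strain (limma, adjusted p = 0.866).

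A further test asked whether the difference that goes with the fob1 deletion depended on the REC8 construct. It set the difference between the mcd1 REC8 fob1 and mcd1 REC8 strains, on the earlier date, against that between fob1 and wild type on the later date. It therefore takes the effect of the deletion to be the same on both dates. It called 396 probe sets (6.93%), 197 higher and 199 lower, and 64 without mcd1 REC8 fob1 replicate 3. FOB1, deleted on both sides, was itself called, with 0.66 (limma, adjusted p = 0.0292). Within the earlier date it was the only call between mcd1 REC8 fob1 and mcd1 REC8. The count of this test is therefore not read as the number of genes whose fob1 difference depends on REC8. Of the 17 genes, 7 passed. The 17 were chosen as apart in the mcd1 REC8 fob1 arrays, which also enter this test, so their share and direction here are not independent of that choice. The log2 difference of PNC1 was -0.32 from mcd1 REC8 to mcd1 REC8 fob1 and 0.49 from wild type to later-date fob1, and the 2 differences were apart by -0.81 (limma, adjusted p = 0.00262). WSC4 differed by -1.07 in this test, GOR1 by -0.63, APE1 by -0.63, PRX1 by -0.60, YHI9 by -0.52 and ATO3 by 0.63. The other 10, among them URA3, YRO2, YGP1 and REC8, did not pass, which does not show that their differences were alike.

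Genes of cohesin and its regulators kept close to the fob1 levels, REC8 apart. Of 24 probe sets on the list, 1 was called (REC8, higher), the median difference was 0.06 and the differences of the other 23 ran from -0.06 to 0.18. SMC1 and SMC3, the ATPase arms of the ring, differed by 0.06 ± 0.07 and 0.12 ± 0.07. IRR1, the ring subunit also called Scc3, and PDS5, which binds the ring, differed by 0.06 ± 0.13 and 0.01 ± 0.14. The loader genes SCC2 and SCC4 differed by 0.13 ± 0.06 and 0.09 ± 0.08, the releasing factor RAD61 by -0.003 ± 0.17, the separase ESP1 by 0.09 ± 0.06 and its inhibitor PDS1 by -0.03 ± 0.08. None of these passed the test, and the lowest adjusted p among those named was 0.575 (limma, SCC2). These members, and those named from other lists below that were not called, were chosen for their roles or after their values were seen.

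Other meiotic genes were not called. Of 62 probe sets for meiosis and sporulation genes, 1 was called, REC8 itself, and the median difference was 0.002. The condensin and Smc5/6 genes, which encode the related ring complexes, had no call among 13 and a median of 0.16, which was 0.10 to 0.17 with 1 array left out. SMC2, a condensin subunit, differed by 0.25 ± 0.10 (limma, adjusted p = 0.508). Genes of rDNA silencing and topoisomerases had no call among 26, with a median of 0.09. RRN6 and RRN11, subunits of the core factor of RNA polymerase I, differed by 0.33 ± 0.12 and 0.34 ± 0.19.

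Targets of the general stress factors Msn2 and Msn4 were the list with most calls. Of 78 probe sets, 5 fell (YGP1, APE1, DDR48, PRX1 and PNC1) and none rose, beside the background of 0.21% lower calls over all probe sets. The difference was negative in 67 of the 78, the median was -0.24 against 0.02 over all probe sets, and in 33 members (42.3%) all 3 mcd1 REC8 fob1 arrays were below all 3 fob1 arrays, beside 6.37% of all probe sets. By array, the list's median relative to the fob1 mean was -0.13, -0.32 and -0.24 in mcd1 REC8 fob1 replicates 1 to 3 and -0.03, 0.11 and -0.08 in the fob1 cultures. All mcd1 REC8 fob1 arrays thus lay below all fob1 arrays, with replicate 1 near the lowest fob1 array. On the same scale the later-date fob1 cultures were at -0.01, 0.19 and -0.28, so cultures of 1 genotype also spread this widely. The value of 0.19 is replicate 2, among the arrays that correlated least with their own groups. Wild type cultures lay closer together, at -0.38, -0.34 and -0.36. The mcd1 REC8 cultures were at 0.01, -0.05 and -0.13. HSP31, a chaperone and methylglyoxalase that was not called, differed by -0.83 ± 0.21 (limma, adjusted p = 0.115). The median was -0.30 against eco1 fob1 and -0.18 against mcd1 REC8. Over the alternatives the median ran from -0.31 to -0.19.

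Ribosome biogenesis genes, which make the processing machinery of ribosomal RNA, showed small positive differences and no call. All 140 probe sets had a difference above 0, from 0.01 for NOP58 to 0.43 for DBP2, with a median of 0.20. In 68 of them (48.6%) the mcd1 REC8 fob1 arrays were all above the fob1 arrays, beside 11.3% of all probe sets, and 35 had an unadjusted p under 0.05. By array the median was 0.13, 0.16 and 0.31 in mcd1 REC8 fob1 and -0.01, -0.07 and 0.08 in fob1, so that the groups did not overlap and replicate 3 was the highest. On the same scale the later-date fob1 cultures were at 0.11, -0.10 and 0.33, so cultures of 1 genotype also spread this widely. The value of -0.10 is replicate 2, among the arrays that correlated least with their own groups. Wild type cultures were at 0.32, 0.41 and 0.58. The mcd1 REC8 cultures were at 0.01, 0.04 and 0.22. The largest member, DBP2, an RNA helicase, differed by 0.43 ± 0.15 (limma, adjusted p = 0.384). The median was 0.16 against eco1 fob1 and 0.12 against mcd1 REC8, and it ran from 0.15 to 0.25 over the alternatives.

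Other parts of the translation machinery had smaller medians. RNA polymerase I and III genes had no call among 33 and a median of 0.13 (0.07 to 0.15 with 1 array left out). Translation factors and tRNA synthetases had none among 50 and a median of 0.06. Wholly higher were 27.3% and 22% of these lists, beside 11.3% of all probe sets. The cytosolic ribosomal proteins, whose probe sets can read near-identical gene copies, had no call among 147 and a median of 0.03. With 4.08% of their probe sets wholly above the fob1 arrays, they were below the 11.3% of all probe sets. The ribosome biogenesis, RNA polymerase and translation factor lists were above it.

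For the iron and Yap1 regulons the list medians lay away from that of all probe sets against fob1, and near 0 or on the other side against eco1 fob1. Of 34 iron regulon probe sets none was called, the median was 0.16, 15 had an unadjusted p under 0.05 (8.01% of all probe sets did) and 11 (32.4%) were wholly higher, beside 11.3% of all probe sets. The median was 0.08 without mcd1 REC8 fob1 replicate 1 and 0.25 without replicate 2. FIT2 and FIT3, cell wall mannoproteins that retain siderophores, differed by 1.23 ± 0.36 and 0.70 ± 0.27, and SIT1, a siderophore transporter, by 0.82 ± 0.20 (limma, adjusted p = 0.0897). The spread was wide in both strains for FIT2, with an SD of 0.76 in fob1 and 0.47 in mcd1 REC8 fob1, and its arrays overlapped. Against eco1 fob1 the iron list had a median of -0.10, and against mcd1 REC8 of 0.06.

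Of 36 probe sets for targets of Yap1, the oxidative stress regulator, none was called, the median was -0.13 and 15 (41.7%) were wholly lower, beside 6.37% of all probe sets. The median was -0.08 without fob1 replicate 2. GRE2, a methylglyoxal reductase, differed by -0.75 ± 0.17 (limma, adjusted p = 0.0583), GTT2, a glutathione transferase, by -0.86 ± 0.20 (0.0635), and ATR1, a drug exporter, by -0.83 ± 0.21 (0.0962). AAD6, a putative aryl-alcohol dehydrogenase, differed by -1.54 ± 0.44 (0.192). Against eco1 fob1 the same 4 genes stood at 0.12, 0.24, 0.30 and -0.07, and the list's median was -0.01. The fob1 arrays do not enter that second comparison, while the mcd1 REC8 fob1 arrays enter both.

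**Figure D4:**
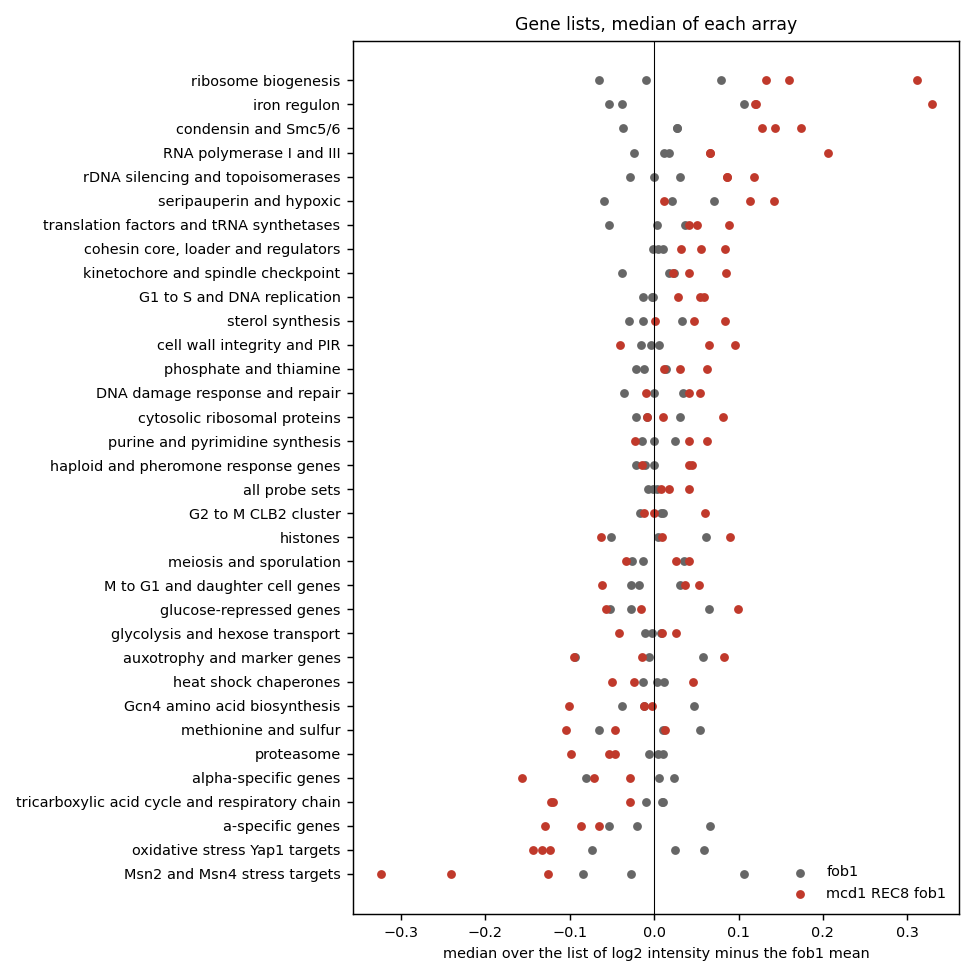
Median over each gene list of the log2 intensity minus the mean of the 3 fob1 arrays, for each fob1 (grey) and mcd1 REC8 fob1 (red) array, with lists ordered by the mean of the red points and all probe sets among them. All probe sets together have every red point above the grey ones, at 0.04, 0.01 and 0.02. So do the ribosome biogenesis, RNA polymerase, condensin, cohesin, rDNA silencing, translation factor, G1 to S and iron lists. The Msn2 and Msn4, Yap1, proteasome, tricarboxylic acid cycle and a-specific lists have all red points below.

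Over all 33 lists, with 1413 of 1462 entries matched to a probe set, 10 lists held a called gene and 23 held none. The called genes were in a list in 11 cases and in none in 6. The share of all probe sets that lie in a list was not counted, so nothing is read from that split. Single calls were WSC4 among 33 probe sets of the CLB2 cluster, SER3 among 71 targets of Gcn4, ATO3 among 50 glucose-repressed genes, PHO89 among 38 phosphate and thiamine genes, URA3 among 36 purine and pyrimidine genes and YGP1 among 52 cell wall genes. Over all probe sets 0.297% were called, and a single call is not read as a trait of its list. The phosphate list as a whole did not follow PHO89. Its median was 0.05, and GIT1, a glycerophosphoinositol permease of that list, differed by -0.91 ± 0.22 (limma, adjusted p = 0.0696). Tricarboxylic acid cycle and respiratory chain genes had no call among 52, a median of -0.09 and 14 members (26.9%) wholly lower, beside 6.37% of all probe sets. Proteasome genes had a median of -0.06, histones of 0.01 and G1 to S and DNA replication genes of 0.05, all without a call.

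Glycolysis held a gene with a large difference that was not called. TDH1, the glyceraldehyde-3-phosphate dehydrogenase isozyme known from slow growth and stationary phase, was at 12.001, 12.57 and 12.22 in the fob1 cultures and 11.41, 11.06 and 11.56 in the mcd1 REC8 fob1 cultures. The groups did not overlap, but its spread over all strains was wide, and the difference was -0.92 ± 0.34 (limma, adjusted p = 0.430). The array's control probe sets for TDH1, which were not in the fit, differed by -0.855 (3′), -1.36 (5′) and -1.26 (middle). A further control probe set for the middle differed by 0.02. It was far brighter, at mean log2 intensities of 14.995 in mcd1 REC8 fob1 and 14.978 in fob1, against 9.55 and 10.81 for the first. Whether it reads TDH1 alone was not given in the sources used here, so it is not set against the others.

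Mating type was the same in both strains by its markers. None of 7 a-specific and none of 6 alpha-specific probe sets was called. MFA2, the a-factor precursor, was at a mean log2 intensity of 14.04 in mcd1 REC8 fob1 and 14.10 in fob1, and MF(ALPHA)1, the alpha-factor precursor, at 4.06 and 4.09. SAG1, the alpha agglutinin, was at 9.66 and 9.51. BAR1, the secreted protease that degrades alpha factor, was at 3.91 to 4.18 in all 27 arrays. The summed a-specific level, as log2 of summed intensity, was 15.43 to 15.46 in mcd1 REC8 fob1 and 15.47 to 15.58 in fob1, and the alpha-specific one 10.88 to 11.14 and 11.001 to 11.26.

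No chromosome and no stretch beside an engineered gene stood apart. The median difference per chromosome ran from 0.01 to 0.04 over 16 chromosomes. Among 35 measured genes within 5 positions of MCD1, REC8, FOB1 or URA3 in the R64 gene table, differences ran from -0.30 to 0.33 and none was called (limma, lowest adjusted p = 0.301).

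**Figure D5:**
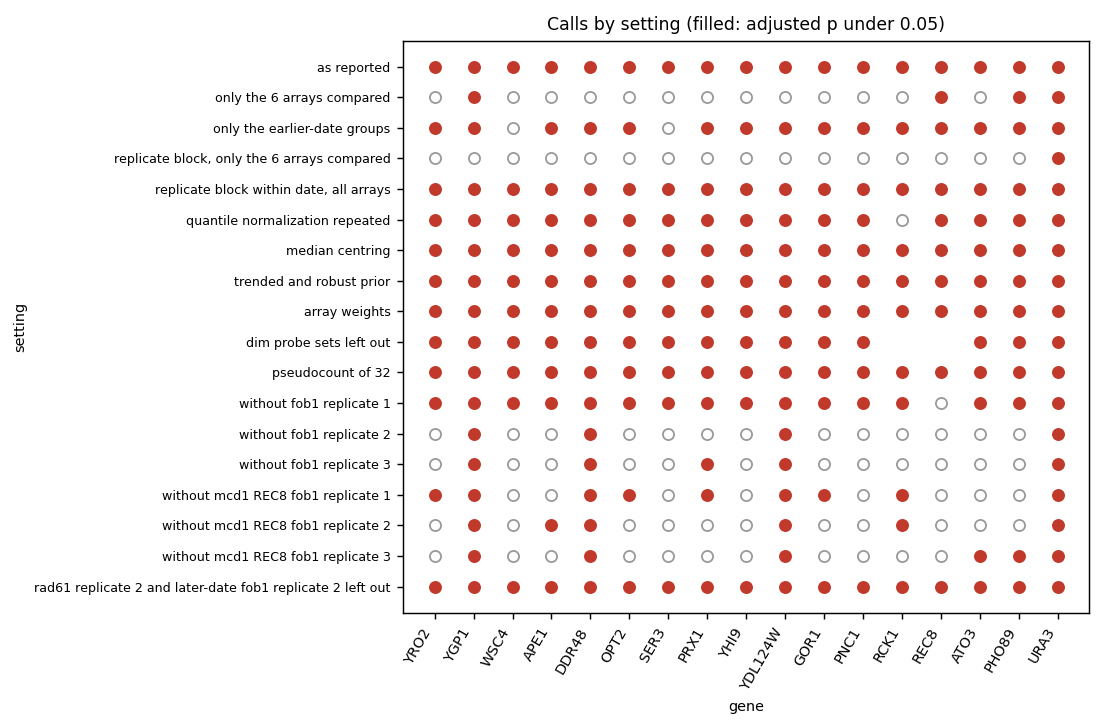
Calls of the 17 genes (columns) as reported and under each of 17 alternatives (vertical axis), filled where the adjusted p was under 0.05, open where not, and blank where the gene was left out as dim. URA3 is filled throughout, REC8 is open in each removal of 1 of the 6 arrays, and the replicate block on 6 arrays leaves URA3 alone.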

How the data were processed

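Intensity per probe set was deposited, which the authors had obtained with RMA in R 2.15.2 according to the submitters' processing notes. Whether both dates were normalized together was not given in the sources used here. Tests had been planned on log2 values, and because the deposited intensity proved linear (10.37 to 39755), log2 was taken. Biotinylated cRNA came from 300 ng of hot acid phenol RNA, per the labels. The 5814 probe sets include 51 control and 47 reporter ones, which were not tested. For 5498 of the 5716 tested the platform table gave 1 symbol, and for 218 none. Gene names and neighbours came from the R64 gene table.

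Contrasts were fitted in R 4.3.3 with limma 3.58.1, using the means of 9 groups over 27 arrays (18 residual degrees of freedom). Tests were two-sided, adjusted by Benjamini-Hochberg per contrast, with a threshold of 0.05. Differences are log2 values ± the limma SE. The code was tested on simulated data. The 3 replicates are cultures of 1 isolate, so p-values measure the spread between cultures. The number of arrays limits the precision.

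Named genes were MCD1, REC8, FOB1, URA3, the largest called differences with non-overlapping arrays (up to 15 each way) and up to 4 called members of each list. All members and lists were chosen with earlier results of these data known. The comparison with mcd1 REC8, the counts of non-overlapping arrays and the removals for all list medians were added after seeing the data. Alternatives were other sets of arrays, a replicate block, repeated quantile normalization, median centring, a trended and robust prior, array weights, a filter on dim probe sets (mean log2 over all arrays under 7), a pseudocount of 32 and removal of each of the 6 arrays.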

Additional observations from a re-analysis of the deposited data

Results flagged for a closer look

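One reporter probe set, outside the tested set, was higher in the mcd1 REC8 fob1 strain by 5.55 (log2). It stood at 9.60, 10.02 and 10.33 there, at 4.31, 4.45 and 4.55 in the fob1 cultures and at 9.42, 9.94 and 10.03 in mcd1 REC8, while the other groups ran from 4.07 to 4.63. Which sequence it reads was not given in the sources used here. The other 46 reporter probe sets differed by -0.71 to 0.20. The control probe sets of URA3 were higher by 2.17, 2.10 and 2.10, beside 2.06 for the tested URA3 probe set.

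The control probe set for 5.8S ribosomal RNA was higher by 0.67. It stood at 11.45, 11.35 and 11.20 in mcd1 REC8 fob1 and at 10.59, 11.19 and 10.22 in fob1, so that the highest fob1 culture lay just under the lowest mcd1 REC8 fob1 culture. The other 16 ribosomal RNA probe sets differed by -0.18 to 0.18.

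The test on the fob1 difference with and without the REC8 construct called 7 of the 17 genes (limma, adjusted p in parentheses). Over all probe sets it called 6.93%. In this test strains with the construct were of the earlier date and the others of the later date. Construct and date cannot be told apart in it. WSC4 differed by -1.07 (0.0163), APE1 by -0.63 (0.0225), PRX1 by -0.60 (0.015), PNC1 by -0.81 (0.00262), GOR1 by -0.63 (0.0096), YHI9 by -0.52 (0.0187) and ATO3 by 0.63 (0.0373). In that order, mcd1 REC8 fob1 minus mcd1 REC8 was -0.57, -0.35, -0.22, -0.32, -0.24, -0.07 and 0.39, and later-date fob1 minus wild type was 0.50, 0.28, 0.38, 0.49, 0.39, 0.45 and -0.24. The genes were chosen with the mcd1 REC8 fob1 arrays that enter this test, and the test sets arrays of both dates against each other. It also called FOB1 itself, which is deleted on both sides.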

How the results depend on the processing

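All 17 called genes kept their direction under the 17 alternatives in which they were measured, and URA3 kept its call in all of them. The count of called probe sets, 17, was 8 on the 6 arrays alone, 28 with quantile normalization repeated, 129 with array weights (whose estimation stopped before its convergence tolerance) and 75 (24 higher, 51 lower) once replicate 2 of rad61 and of the later-date fob1 group were dropped, the arrays that correlated least with their own groups. Leaving out 1 of the 6 arrays at a time gave 4 to 23. Members called in the gene lists, 11, became 7, 58 and 41 on the 6 arrays, with array weights and without those 2 arrays, and 3 to 14 with 1 array left out. The 51 calls against eco1 fob1 became 103 with array weights, 127 without those 2 arrays and 23 to 41 with 1 array left out. The 396 calls of the test on the fob1 difference with and without REC8 became 1188 with array weights and 64 to 438 with 1 array left out. With the replicate block the main count was 1 on the 6 arrays and 53 within date, list members 1 and 23, the eco1 fob1 count 91 and the count of that last test 959. Arrays of the same number correlated at 0.10, 0.28 and -0.16 in their deviations, so the numbers were not taken as pairs. Dim signal limits REC8 and RCK1, which the filter on dim probe sets left out. With quantile normalization repeated, 35 of 78 Msn2 and Msn4 targets were wholly lower, beside 463 of all 5716 probe sets. In that setting 59 of 140 ribosome biogenesis genes were wholly higher, beside 473 of all probe sets. With median centring 36 targets were wholly lower, beside 426 of all probe sets, and 61 ribosome biogenesis genes wholly higher, beside 474. The cause of these shifts was not tested.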
